A study of Mus musculus with 4 samples.

Results

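Stitched clusters of distal open chromatin were examined in fetal mouse germ cells that the labels call Gata2WT and Gata2cKO, a conditional knockout of Gata2. In the Gata2WT peak list, intervals within 1 kb of either end of a protein-coding gene were set aside, and the distal intervals that remained were joined wherever the gap between neighbours was at most 12500 bp. A cluster is a joined run of 5 or more intervals, and its members are those intervals. The rule found 485 clusters that together held 2891 members, which is 5.85% of the 49394 Gata2WT intervals on the autosomes and X and 8.27% of the 34975 distal ones. The same steps in the Gata2cKO list found 340 clusters with 2022 members among 30137 distal intervals. The members were chosen by the positions of the Gata2WT intervals, so the sizes, spans and strengths of the clusters are given as a description.

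The intervals came from ATAC-seq, which reads where the Tn5 transposase can insert adapters into chromatin and so maps accessible DNA. Ovaries were taken from female C57BL/6J embryos at E14.5, an embryonic day, and cells bearing SSEA1, a carbohydrate antigen of early germ cells, were pulled out with magnetic beads, at about 10000 cells per library. Fathers carried 1 floxed Gata2 allele and Prdm1-Cre, in which the promoter of a germ cell specification gene drives the Cre recombinase. Mothers were Gata2flox/flox, so every embryo of either group received at least 1 floxed allele, and the labels do not say which littermates were called Gata2WT or whether those carried Cre. The labels name 2 samples of each genotype, and the values used here are 1 combined list per genotype. There is therefore no replicate error for any value below, no test between genotypes was made, and the 95% Wilson intervals given with shares cover counting error only. In the combined Gata2WT list the genome background was 2.19 fragments and the median summit pileup of an interval was 19 fragments, against 2.01 and 19 in the Gata2cKO list. The read number of each sample was not analysed here, and whether the floxed part of Gata2 was lost cannot be read from lists of intervals.

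The labels call the material ovarian cells, and the promoters of marker genes were looked up in both lists. Of 18 genes of the germ cell list with a RefSeq promoter window, 15 had an interval on it in each list, Kitl among them. The windows of Nanos3, Nanos2 and Tdrd9 had none in either. Of 28 genes of meiotic entry and prophase, 25 had an interval in each list. Windows of 7 of 12 granulosa and stromal genes were open in Gata2WT and 6 of 12 in Gata2cKO. Those of Foxl2, Emx2, Runx1, Irx3, Tcf21 and Lhx2 had an interval in both lists, and that of Rspo1 in Gata2WT alone. Those of Wnt4, Nr2f2, Lhx9, Amhr2 and Pdgfra had no interval in either. For endothelial, blood and macrophage genes the count was 4 of 11 in each list. The windows of Kdr, Tek, Flt1 and Tal1 had an interval in both lists. Those of Erg, Ptprc, Cx3cr1, Klf1, Epor and both haemoglobin genes had no interval in either. Some promoters of somatic markers were thus open in this material, and the part of other ovarian cells in any single interval was not tested. The share of all promoter windows under an interval was not computed, so these counts do not measure what each cell type contributed.

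Enhancers and other regulatory elements of 1 gene often lie near each other, and dense runs of them are found at many genes that set cell identity. Joining elements across gaps of this length is also the first step in naming super-enhancers, but that name needs a ranking by a chromatin mark or a bound cofactor, which was not measured here, so the runs are called clusters. Not every open site away from a protein-coding gene is an enhancer: promoters of long noncoding RNAs, inner promoters of coding genes, insulator sites, small nuclear RNA genes and tRNA genes are open as well. tRNA genes are read by RNA polymerase III from internal control elements, the A box and the B box, and mouse tRNA genes lie in tight arrays, the largest beside the histone genes on chromosome 13.

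Several members lie on annotated start sites, and their sequences show what the distal rule keeps. The RefSeq table (GRCm38.p6) gives the 250 bases before and 50 bases after each start. The windows printed here are the inner start of Gata2, the targeted gene, and a start of Gm38708, the lncRNA read in the other direction beside it, both under 1 member (chr6:88197033-88198938); a start of Gm39783, an lncRNA in the largest cluster; Gm13262, an lncRNA in the Gata3 cluster; and Firre, an X-linked lncRNA whose gene holds a whole cluster. Capitals mark a match to a GATA motif, searched on both strands as GATA with an A or T before it and an A or G after it.
Gata2, chr6:88198414-88198713, plus strand: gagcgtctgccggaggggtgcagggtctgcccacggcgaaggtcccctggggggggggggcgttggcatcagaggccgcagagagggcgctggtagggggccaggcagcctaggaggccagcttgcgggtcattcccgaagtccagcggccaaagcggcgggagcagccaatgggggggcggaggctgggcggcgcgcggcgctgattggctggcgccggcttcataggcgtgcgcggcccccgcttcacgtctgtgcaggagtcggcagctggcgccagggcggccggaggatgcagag
Gm38708, chr6:88197399-88197698, minus strand: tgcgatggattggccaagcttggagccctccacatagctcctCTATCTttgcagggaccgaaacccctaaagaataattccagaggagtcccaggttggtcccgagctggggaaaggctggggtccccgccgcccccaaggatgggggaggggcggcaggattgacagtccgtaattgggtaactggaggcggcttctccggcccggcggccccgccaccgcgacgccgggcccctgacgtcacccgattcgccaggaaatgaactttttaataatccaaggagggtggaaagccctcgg
Gm39783, chr2:30771997-30772296, plus strand: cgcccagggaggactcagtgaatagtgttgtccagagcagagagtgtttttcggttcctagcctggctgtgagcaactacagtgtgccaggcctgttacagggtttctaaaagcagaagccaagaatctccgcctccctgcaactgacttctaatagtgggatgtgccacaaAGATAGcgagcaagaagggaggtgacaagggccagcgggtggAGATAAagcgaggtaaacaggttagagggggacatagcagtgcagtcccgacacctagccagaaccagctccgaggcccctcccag
Gm13262, chr2:9905899-9906198, plus strand: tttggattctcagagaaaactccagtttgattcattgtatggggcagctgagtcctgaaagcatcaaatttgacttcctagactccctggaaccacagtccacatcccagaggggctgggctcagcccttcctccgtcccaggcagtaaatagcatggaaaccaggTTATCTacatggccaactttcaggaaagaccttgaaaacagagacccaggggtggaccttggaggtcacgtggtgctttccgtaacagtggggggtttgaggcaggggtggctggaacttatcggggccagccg
Firre, chrX:50635272-50635571, minus strand: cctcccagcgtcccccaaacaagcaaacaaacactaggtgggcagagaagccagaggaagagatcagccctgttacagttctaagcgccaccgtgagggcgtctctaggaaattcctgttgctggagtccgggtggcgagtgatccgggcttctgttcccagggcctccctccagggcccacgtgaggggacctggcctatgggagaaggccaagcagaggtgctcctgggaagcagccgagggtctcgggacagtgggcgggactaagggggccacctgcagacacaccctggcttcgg
The Gata2 and Firre windows hold none of these letters, those of Gm38708 and Gm13262 hold 1 match and that of Gm39783 holds 2. Of the 221 windows under Gata2WT members, 39 (17.6%, 13.2 to 23.2) held at least 1 match, against 21.7% (20.1 to 23.3) of 2456 windows under other distal intervals and 29.6% of all 32619 windows. The windows under members were also richer in G and C, with a median of 58.3% against 57.7% under other distal intervals and 53% over all windows, and the part of base composition in the motif share was not tested. A match describes the letters of the window and is not a bound site.

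A further member carries a tRNA-like sequence in full. The Mir1983 hairpin on chromosome 13 overlaps the tRNA gene n-TItat14 (21896938 to 21897031, an isoleucine tRNA with anticodon TAT), and the member over it (chr13:21896682-21897526) had a pileup of 42 fragments in Gata2WT and 30 in Gata2cKO. Capitals mark the A box, searched as UGGCNNANN, and the B box, searched as GUUCGANNC, on the strand of the hairpin.
Mir1983, chr13:21896918-21897049, minus strand: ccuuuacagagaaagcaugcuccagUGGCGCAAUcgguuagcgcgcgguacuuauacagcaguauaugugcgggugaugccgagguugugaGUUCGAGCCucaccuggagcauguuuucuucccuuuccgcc
The A box occupies bases 26 to 34 and the B box bases 92 to 100, counted from the 5′ end. Of 1005 mouse hairpins listed, 96 hold the A box letters, 5 hold the B box letters and 1 holds both, which is this one. The spelling of the A box was set after this hairpin had been looked at.

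Most clusters were just large enough to be counted. Of the 485 Gata2WT clusters 256 (52.8%) had 5 members, 53 had 8 or more and 14 had 10 or more, up to 16. Spans ran from 9.95 to 108 kb, with a median of 34.0 kb and a total of 17.1 Mb. The median gap between neighbouring members was 6.43 kb and members covered a median of 9.04% of the span, so called distal intervals make up a small part of a cluster. The spans also hold 131 intervals at gene ends, which are no members. In the Gata2cKO list 182 of 340 clusters (53.5%) had 5 members and the largest had 17. At the threshold of the rule, the 578 Gata2WT runs of 4 intervals had a median −log10 q of 4.82, equal to the 4.82 of the 256 clusters of 5, and 33.4% of their intervals against 32.9% had no counterpart in the other list. The step from 4 to 5 intervals therefore separates runs of like strength.

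**Figure D1:**
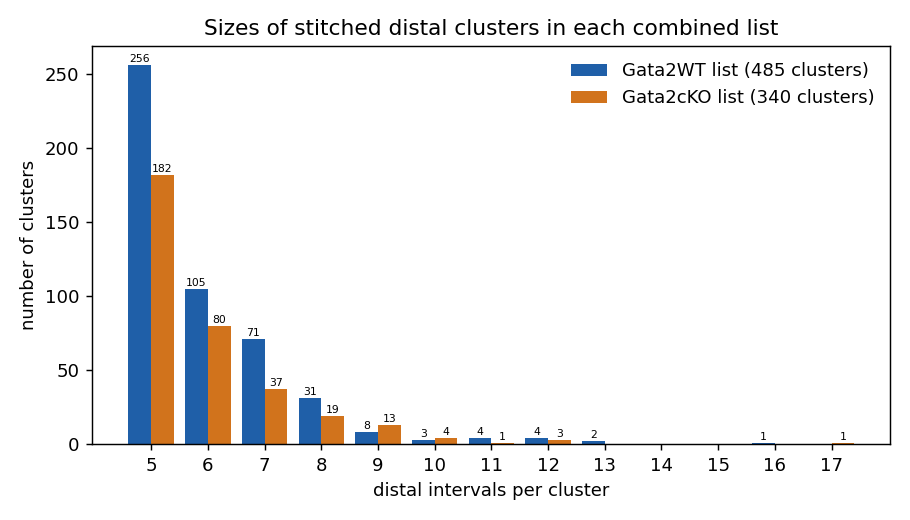
Number of clusters (y axis) by the number of distal intervals each one holds (x axis), for the Gata2WT list (blue, 485 clusters) and the Gata2cKO list (orange, 340 clusters). Clusters of 5 make up 256 and 182 of them, and a tail reaches 16 and 17 intervals.

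Members were close to other distal intervals in strength and width. Their median −log10 q was 5.13 against 4.82 for the other 32084 distal intervals, and their median width was 470 against 462 bp. Summit pileup had a median of 18 fragments in members and 15 in the others, while the local background had a median of 3.59 and 2.68 fragments, and the median fold enrichment over it was 3.92 and 4.08. A local background above 1.1 times that of the genome was found for 85.2% of members and 60.4% of other distal intervals. The local background is taken from DNA around the peak, which for a member holds other members by the rule, so this difference in part restates the rule. The Gata2cKO list gave the same order, with a median local background of 3.69 fragments in members and 2.62 in other distal intervals.

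A cluster was usually led by a few strong members. The strongest member of a Gata2WT cluster had a median −log10 q of 17.2 and the weakest one of 1.97, and 119 clusters had no member that reached 10. By position, 359 clusters touched a protein-coding gene, 150 of them wholly inside it, and 126 lay outside coding genes. In 211 clusters the span crossed the end of a coding gene, although the interval at such an end, where there was one, was not counted as a member.

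The largest cluster was a block of lncRNA genes on chromosome 2 (chr2:30676716-30785162, 108 kb), 10.4 kb from the nearest coding gene, 1700001O22Rik. It held 16 Gata2WT members, and each of them overlapped a Gata2cKO interval; the Gata2cKO list had 17 intervals in the span. The −log10 q of the 16 members ran from 1.97 to 75.4 with a median of 10.1. The strongest member (30778954 to 30779779) had a pileup of 121 fragments in Gata2WT and 135 in Gata2cKO, and the next (30758136 to 30759113) 77 and 73 fragments. This block carries 6 lncRNA genes, Gm39783 among them, and its open sites recurred in both genotypes.

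The Tex14 cluster (chr11:87422565-87471798) had the highest median −log10 q of the 10 clusters with most members. Tex14 encodes a protein of the bridges that join dividing germ cells, and within its span lie the U1 and U3 RNA genes Rnu1a1, Rnu3b1, Rnu3b2, Rnu3b3 and Rnu3b4 and related copies. The cluster had 12 Gata2WT members, of which 11 had a Gata2cKO counterpart, and a median −log10 q of 19.8. The member over Rnu1a1 had a pileup of 110 fragments in Gata2WT and 93 in Gata2cKO. Near-identical copies of these small RNA genes share reads, and the treatment of reads with several possible positions is unknown here, so the height at any single copy is uncertain.

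Firre, an lncRNA gene known for many copies of a repeat bound by the insulator protein CTCF, held 12 Gata2WT members across 69.4 kb (chrX:50566171-50635528), and 10 of them had a Gata2cKO counterpart. Pileups ran from 9 to 47 fragments in the Gata2WT list. The 2 members without a counterpart had a −log10 q of 3.31 and 2.07, and 10 of 12 members thus recurred. The member on the Firre start site printed above had a pileup of 24 fragments in Gata2WT and 31 in Gata2cKO. The nearest coding gene was Olfr1324, far outside the cluster.

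Of the other clusters of 11 or more members, 6 overlapped coding genes. Tnrc18 had 13 Gata2WT and 11 Gata2cKO intervals in its span, and Slc28a1, a nucleoside transporter gene, had 13 and 10. Zfp710, a zinc finger gene, had 12 and 10. Ltbp4, which encodes a binding protein of latent TGF-beta, had 11 and 9, as did Ryr1, a calcium release channel gene. The Mical3 cluster had 11 and 5. In each of these 6 clusters the count was higher in the Gata2WT list, which is the list that chose them.

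By the ratio of shares, tRNA genes were more concentrated among members than lncRNA, snRNA, miRNA or coding genes were. Of the 2891 members, 64 (2.21%, 1.74 to 2.82) lay on a tRNA gene, against 72 of 32084 (0.224%, 0.178 to 0.282) other distal intervals. In the Gata2cKO list the shares were 65 of 2022 (3.21%) and 68 of 28115 (0.242%). The 64 members fell in 14 clusters, and 47 of them were on chromosome 13. Features that lie in arrays are favoured by any rule that joins neighbours, so the share describes what the rule collects.

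The tRNA members were strong and recurred. Their median −log10 q was 16.2 and their median pileup 41 fragments, against 5.0 and 17 for the remaining members. Only 5 of 64 (7.81%, 3.38 to 17.02) had no Gata2cKO counterpart, against 933 of 2827 (33.0%) remaining members; over all distal Gata2WT intervals the share was 37.2%. Their strength goes with this, since members with a −log10 q from 10 to 20 lacked a counterpart in 3.56%. Other distal Gata2WT intervals on a tRNA gene were stronger still, with a median −log10 q of 27.0 and a median pileup of 52.5 fragments. Of these, 0 of 72 (up to 5.07%) lacked a counterpart, so neither trait is particular to clustered tRNA sites. Of the 408 tRNA genes listed, 234 (57.4%) lay under an interval of the Gata2WT list and 234 under one of the Gata2cKO list, with 10 genes in each list alone.

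The tRNA arrays on chromosome 13 gave some of the densest clusters. The array nearest Gpx5 (chr13:21215368-21280076) had 12 intervals in each list, 11 of the Gata2WT ones on a tRNA gene. Its pileups ran from 16 to 57 fragments, and the 1 member without a counterpart had the lowest of them. The array nearest Zfp184 (chr13:21896682-21941181), where the Mir1983 hairpin lies, had 11 members, all 11 on a tRNA gene, and 9 Gata2cKO intervals. The 2 members without a counterpart there had pileups of 22 and 26 fragments. The array nearest Btn1a1 (chr13:23431343-23454180) had the highest median −log10 q of any Gata2WT cluster, 56.4, and its 5 members had Gata2WT pileups of 45, 103, 50, 114 and 100 fragments against 43, 96, 32, 80 and 70 in the Gata2cKO list. All 5 recurred. tRNA genes of 1 family are near copies of each other, and the caution on reads with several positions holds here too.

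**Figure D2:**
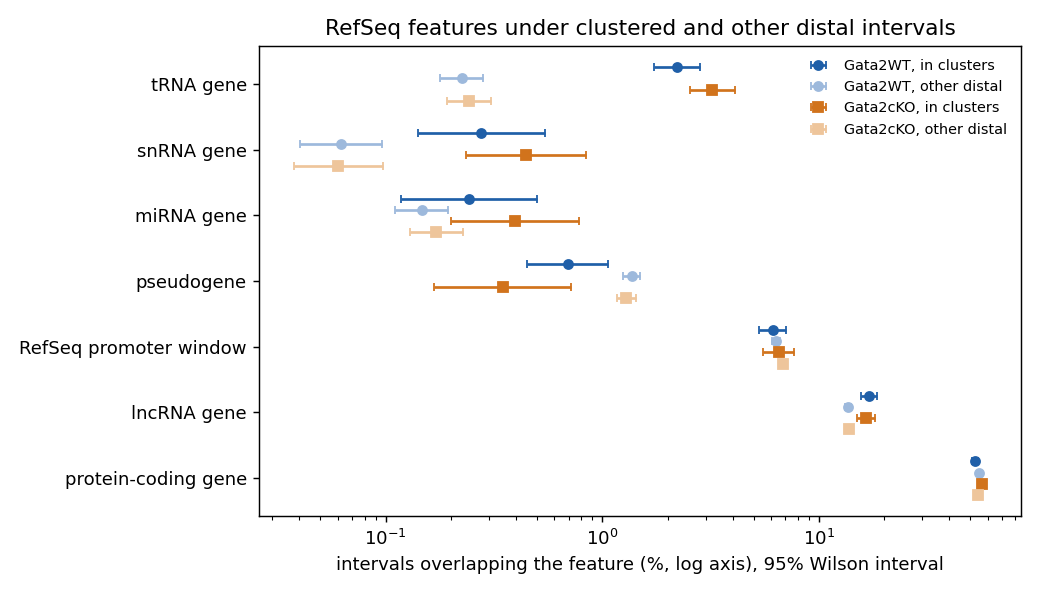
Share of intervals that overlap each kind of RefSeq feature (x axis, percent on a log scale), for clustered and other distal intervals of both lists, with 95% Wilson intervals. tRNA genes lie under 2.21% of clustered and 0.224% of other distal Gata2WT intervals, and protein-coding genes under 52.5% and 54.7%.

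The other annotated features differed less. snRNA genes lay under 8 members (0.277%) and 20 other distal intervals (0.0623%), and miRNA genes under 7 (0.242%) and 47 (0.146%), with overlapping counting intervals for the latter. lncRNA genes lay under 17.02% of members (15.7 to 18.4) and 13.6% of the others (13.2 to 14.0). A pseudogene was found under 0.692% and 1.37%. A promoter window lay under 6.12% of members and 6.33% of the others, and 32.8% and 34.2% overlapped no annotated gene of any kind.

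Start sites were concentrated among the strongest members. Of the 300 members with a −log10 q of at least 20, 95 (31.7%, 26.7 to 37.1) lay on a promoter window or on a tRNA, snRNA or miRNA gene, against 6 of 382 (1.57%) below 2. Other distal intervals showed a like rise, from 1.60% to 32.4%. In the top class promoter windows alone lay under 21.3% of members (17.1 to 26.3) and 30.7% of other distal intervals (29.2 to 32.3). That class has no upper limit, the highest −log10 q was 120.9 among members and 479.1 among the others, and the difference in the promoter share was not tested. The Mcl1 promoter is an example: Mcl1, a survival gene of the BCL2 family, has its window under a member with a −log10 q of 53.3, because the gene model in the table begins further upstream.

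Of the miRNA genes under members, 6 matched the RefSeq sequence table, Mir1983 among them, and Mir193a belongs to a conserved family. The member over Mir193a, inside the Rab11fip4 cluster (chr11:79710627-79712044), had −log10 q values of 24.0 (Gata2WT) and 25.5 (Gata2cKO). Mature sequences are printed with the seed, bases 2 to 8, in capitals.
mmu-miR-193a-5p: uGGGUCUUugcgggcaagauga
mmu-miR-193a-3p: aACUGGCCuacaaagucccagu
The members over Mir1905 (26.8 and 17.3), Mir7687 (37.8 and 28.5), Mir3093 (8.37 and 6.06) and Mir7078 (5.88 and 1.56) were likewise present in both lists by their −log10 q.

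Clusters were then compared between the lists by position. A Gata2cKO cluster overlapped 186 of the 485 Gata2WT clusters (38.4%, 34.1 to 42.8), which leaves 61.6% without one. A Gata2WT cluster overlapped 185 of the 340 Gata2cKO clusters (54.4%, 49.1 to 59.6), which leaves 45.6%. The Gata2WT list is longer, and when it was shortened to the length of the other list by −log10 q its clusters fell to 301, below the 340 of the Gata2cKO list. The order of the 2 cluster counts thus depends on list length, and at equal lengths the overlapped shares were 49.5% of Gata2WT and 43.5% of Gata2cKO clusters.

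A cluster without a partner was rarely an empty region in the other list. Of the 299 Gata2WT clusters with no overlapping Gata2cKO cluster, 3 had no Gata2cKO distal interval in the span, 14 had 1, 42 had 2, 95 had 3, 103 had 4 and 42 had 5 or more. Of the 155 unmatched Gata2cKO clusters 1 had no Gata2WT distal interval and 78 had 4. Most unmatched clusters therefore fell short of the 5 intervals in the other list by 1 or 2. Larger clusters were matched more often: 75 of 256 Gata2WT clusters of 5 (29.3%, 24.1 to 35.1), 75 of 176 with 6 or 7 (42.6%) and 36 of 53 with 8 or more (67.9%, 54.5 to 78.9). The Gata2cKO clusters gave 44.5%, 59.8% and 82.9% for the same sizes.

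Counts of intervals per span were higher in the list that chose the cluster. In Gata2WT clusters there were 2891 Gata2WT and 2105 Gata2cKO intervals, with a median difference of 2 and a range from −2 to 7; 378 clusters had more Gata2WT intervals, 84 as many and 23 fewer. In Gata2cKO clusters there were 2022 Gata2cKO and 1656 Gata2WT intervals, with a median difference of 1, and 227 had more, 80 as many and 33 fewer. When the intervals of both lists were stitched together, 700 clusters with 5 or more intervals of at least 1 list held 3904 Gata2WT and 3524 Gata2cKO intervals. Both lists reached 5 in 320 of them, Gata2WT alone in 251 and Gata2cKO alone in 129. Of the 700 clusters, 362 had more Gata2WT intervals, 122 as many and 216 fewer, with a median difference of 1. The Gata2WT list is also the longer one, with 34975 against 30137 distal intervals, and the counts were not scaled for that.

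**Figure D3:**
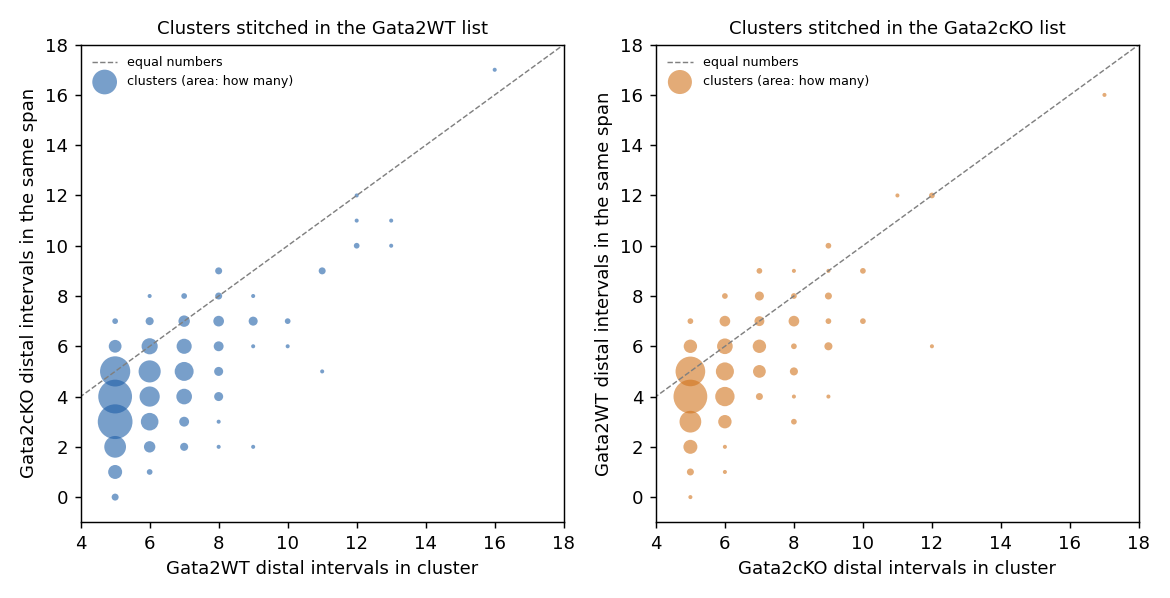
Distal intervals of the list that chose a cluster (x axis) against distal intervals of the other list in the same span (y axis); the area of a point gives the number of clusters and the dashed line marks equal numbers. Points lie mostly under the line in both panels, for 378 of 485 Gata2WT clusters and 227 of 340 Gata2cKO clusters.

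Single members were shared more often than whole clusters. Of all 49394 Gata2WT intervals 28.5% had no overlapping Gata2cKO interval, and of the distal ones 37.2%. Among the 2891 members the share was 938 (32.4%, 30.8 to 34.2), and among the other distal intervals 12088 of 32084 (37.7%, 37.1 to 38.2). Weighted to the strength of the members, the other distal intervals gave 35.6%. In the Gata2cKO list 19.7% of all and 26.8% of distal intervals had no Gata2WT counterpart, with 475 of 2022 members (23.5%, 21.7 to 25.4) against 27.0% of the others, or 26.3% at the members' strength. Clustered intervals were thus somewhat less often in 1 list alone than other distal ones, in both lists.

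The shares fell as strength rose. Below a −log10 q of 2, 68.8% of Gata2WT members and 74.7% of other distal intervals had no counterpart. From 2 to 5 the shares were 50.4% and 53.6%, and from 5 to 10 they were 18.1% and 22.2%. From 10 to 20 they were 3.56% and 4.77%, and at 20 and over 1 of 300 members (0.333%) and 0.185% of the others. In the Gata2cKO list the shares fell from 60.1% of members to 0 of 217, which allows up to 1.74%. The difference between members and others was small beside the fall with strength. Their counting intervals lay apart below 2 and from 5 to 10 in Gata2WT and from 5 to 10 in Gata2cKO, and overlapped in the other classes.

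**Figure D4:**
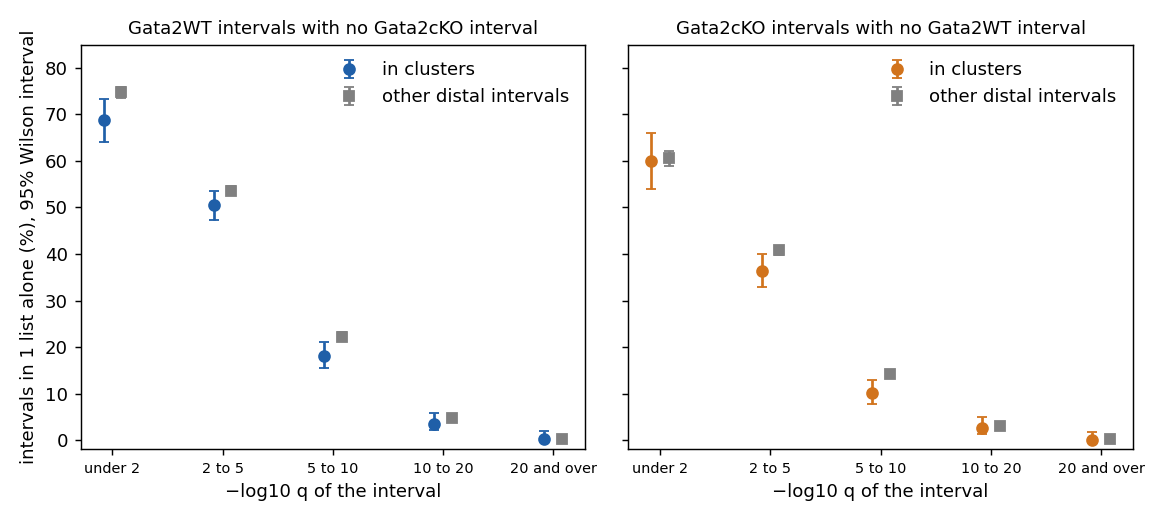
Share of intervals found in 1 list alone (y axis, percent, with 95% Wilson intervals) by class of −log10 q (x axis), for clustered intervals (coloured) and other distal intervals (grey) of the Gata2WT list (left) and the Gata2cKO list (right). The Gata2WT members go from 68.8% in the weakest class to 0.333% in the strongest.

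Within a cluster the place of a member made little difference, and its rank did. The first and last members of Gata2WT clusters lacked a counterpart in 32.2% (29.3 to 35.2) and the inner ones in 32.6% (30.5 to 34.7). The strongest member lacked one in 27 of 485 clusters (5.57%, 3.85 to 7.98) and the weakest in 299 of 485 (61.6%, 57.2 to 65.9). All members recurred in 67 clusters, 126 had 1 without a counterpart, 144 had 2 and 148 had 3 or more. In 119 clusters at least 50% of members lacked a counterpart, and in 4 clusters all did.

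Clusters with the largest surplus of Gata2WT intervals were named by rule, and their surplus is what chose them. The first lies upstream of Dlk1 (chr12:109388934-109450259, 61.3 kb), an imprinted gene of a Notch-like ligand expressed from the paternal copy, and ends 2.226 kb from it. It had 9 Gata2WT and 2 Gata2cKO intervals. The 9 members had Gata2WT pileups of 16, 17, 19, 15, 16, 12, 13, 24 and 13 fragments in order along the chromosome. Those with 15 and 24 fragments had a counterpart, with 17 and 15 fragments, and the other 7 had none. The −log10 q of the 9 ran from 1.54 to 9.13, with a median of 4.69 against 5.13 over all Gata2WT members. At equal list lengths the counts were 8 and 2, and with a −log10 q of at least 5 they were 4 and 1.

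The Mical3 cluster (chr6:121081028-121137668) had 11 Gata2WT and 5 Gata2cKO intervals. Mical3 encodes a flavin monooxygenase of a family that acts on actin. Its strongest member recurred with a pileup of 124 fragments in Gata2WT and 114 in Gata2cKO, whereas the 6 members without a counterpart had 8 to 20 fragments. The clusters of Plk5, a polo-like kinase gene (8 and 2), Arhgef10 and Mcf2l (7 and 2 each), Myo5b, an unconventional myosin gene (7 and 2), Tead1, a DNA-binding partner of YAP (8 and 3), and Prkcz, an atypical protein kinase C gene (6 and 1), complete the list. The strongest member of the Mcf2l cluster had a −log10 q of 18.02, and the median over its members was 2.74. At equal list lengths the Mcf2l counts were 4 and 2 and the Prkcz counts 3 and 1. With a −log10 q of at least 5 the surplus ended at Arhgef10 (2 and 2) and Mcf2l (1 and 1) and was 1 interval at Mical3 (4 and 3), Plk5 (3 and 2) and Tead1 (2 and 1). Myo5b and Prkcz then had 3 and 1 each, so these surpluses rested largely on intervals under that limit.

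The Gata2cKO clusters with the largest surplus were chosen the same way. Nhsl1, a relative of the Nance-Horan syndrome gene, had 12 Gata2cKO and 6 Gata2WT intervals (chr10:18347258-18415411). The 6 Gata2cKO intervals without a counterpart had pileups of 8 to 17 fragments. With a −log10 q of at least 5 the order turned, to 2 Gata2cKO and 5 Gata2WT intervals, so the surplus rested on weak intervals. The order turned under that limit also at Map4k4 (8 and 3 before, 1 and 2 after), Plcg2 (6 and 1, then 0 and 1) and Axin2 (8 and 4, then 1 and 2). Atp5o (8 and 3), Mbp (9 and 4), Pafah2 (6 and 2) and Ankrd11 (5 and 0) kept their order or reached 0 in both lists. The 5 Gata2cKO intervals at Ankrd11, a chromatin regulator gene, had pileups of 10 to 14 fragments, and no Gata2WT interval lay in the span.

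**Figure D5:**
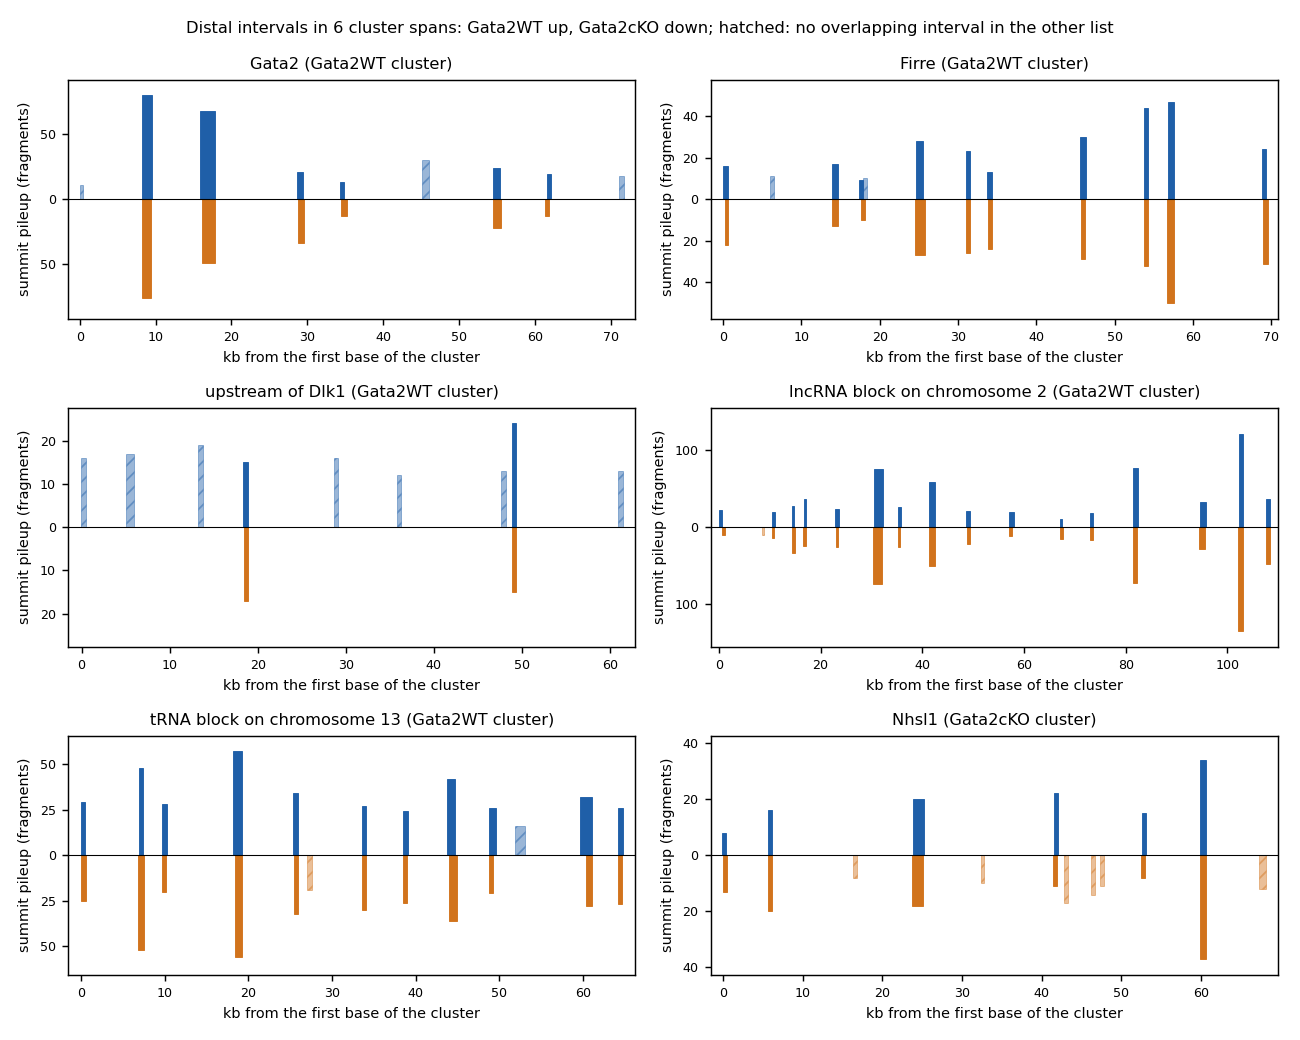
Distal intervals in 6 cluster spans, as summit pileup in fragments (y axis, Gata2WT upward in blue, Gata2cKO downward in orange) by distance in kb from the first base of the cluster (x axis); hatched bars have no overlapping interval in the other list. The Gata2 span has 9 intervals upward and 6 downward, the Dlk1 span 9 and 2, and the tallest bar of each map has a counterpart in the other list.

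Gata2 itself lies in a cluster. The span (chr6:88181121-88252801, 71.7 kb, the fourth longest) holds 9 Gata2WT and 6 Gata2cKO distal intervals, and no Gata2cKO cluster overlaps it. The member at 88189376 to 88190705, upstream of the gene, had a pileup of 80 fragments in Gata2WT and 76 in Gata2cKO. The member over the inner Gata2 and Gm38708 start sites had 68 and 49 fragments. The member at 88209811 to 88210571, just downstream of the gene, had 21 and 34 fragments. These 3 recurred, as did 3 further members with pileups of 13, 24 and 19 fragments in the Gata2WT list.

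Gata2 spans 88193891 to 88207032, and only the member over the inner start sites lies within it. The 3 Gata2WT members of that cluster without a counterpart thus lie outside the gene, as do most that recurred. They had pileups of 11 fragments upstream, and 30 and 18 fragments downstream. The second of them (88226198 to 88227103), with a −log10 q of 11.6, is of a strength at which 3.56% of members lacked a counterpart. Its absence from the Gata2cKO list is 1 observation in 1 list and was not tested. At equal list lengths the counts in the span stayed 9 and 6. A second cluster within 50 kb of Gata2 lies beside Rpn1, next to which a distant Gata2 enhancer of blood progenitors is known, and it had 5 Gata2WT and 3 Gata2cKO intervals; its strongest member had 38 and 27 fragments.

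Of the other GATA genes, Gata3 and Gata4 had clusters within 50 kb in both lists, and Gata1, Gata5 and Gata6 had none in either. The Gata3 cluster, which also touches Taf3 (chr2:9879177-9923658), had 9 Gata2WT and 7 Gata2cKO intervals, and Gata4, a factor of gonadal somatic cells, had 5 and 5. The Gata3 members ran from 61 fragments at 9879177 to 9879893, where the Gata2cKO list had 45, down to 10 fragments at the last member, which had no counterpart. The member on the Gm13262 start site, whose window holds a GATA match, had 16 and 10 fragments. Of the 20 GATA factors and blood partners in the list, 4 (Gata2, Gata3, Gata4 and the E protein gene Tcf3) had a Gata2WT cluster within 50 kb and 3 a Gata2cKO cluster. The clusters near Tcf3 did not overlap between the lists. Across all 21631 protein-coding genes the shares were 5.67% and 4.52%.

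Germ cell identity was the list with the largest share of genes near a Gata2WT cluster. Of 23 such genes 7 (30.4%, 15.6 to 50.9) had a Gata2WT cluster within 50 kb, and 4 (17.4%, 6.98 to 37.1) had a Gata2cKO cluster. The 7 include the neighbours Ifitm1 and Ifitm3, which share a cluster, so these genes are not independent counts. Nanos3, an RNA-binding protein that keeps primordial germ cells alive, lies 3.62 kb from a dense cluster (chr8:84180171-84204208) of 7 Gata2WT and 6 Gata2cKO intervals. Its members had Gata2WT pileups of 55, 33, 48, 31, 74, 46 and 33 fragments, and Gata2cKO pileups of 48, none, 37, 32, 70, 33 and 35. The heights were thus in like order in both lists, and the window of Nanos3 itself had no interval.

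Prdm1, the specification factor whose promoter drives the Cre, had 8 Gata2WT and 6 Gata2cKO intervals inside its gene (chr10:44441152-44493479). The strongest member lies on an inner Prdm1 start site and had 42 fragments in Gata2WT and 30 in Gata2cKO. The 4 members without a counterpart had 8, 12, 13 and 20 fragments. Nanos2 and the adhesion gene Pecam1 had 5 intervals in each list. The interferon-induced transmembrane genes Ifitm1 and Ifitm3, markers of early germ cells, lie by a weak cluster of 5 Gata2WT and 2 Gata2cKO intervals with pileups of 8 to 12 fragments, and Ifitm3 is also near a stronger one of 5 and 4. In the span of the weak cluster the counts were 2 and 2 at equal list lengths. With a −log10 q of at least 5 they were 0 and 0. Alpl, the alkaline phosphatase of primordial germ cells, had 5 and 3 beside it.

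The pluripotency list gave the same count in both genotypes, 4 of 30 genes. Within 50 kb, Sox2, Prdm14, Sall4 and Trim71 had a Gata2WT cluster, and Sall4, Trim71, Klf5 and Etv5 a Gata2cKO cluster, so 2 genes were in common. The Sox2 cluster (chr3:34663403-34706477) begins 10.9 kb from the gene and had 7 Gata2WT and 4 Gata2cKO intervals. Its members had Gata2WT pileups of 45, 32, 31, 40, 22, 26 and 11 fragments. Those with 45, 31, 40 and 22 fragments had a counterpart, with 37, 59, 44 and 22 in the same order, and the other 3 had none. No direction is common to the 4 shared members. A Gata2cKO cluster (chr3:34738475-34760317) also has Sox2 as its nearest coding gene, but lies 86.0 kb away, beyond the 50 kb limit. It had 5 Gata2cKO and 4 Gata2WT intervals. The cluster given to Ncoa2 spans the whole of Prdm14, a repressor needed for germ cell pluripotency. This cluster had 7 Gata2WT and 4 Gata2cKO intervals, and its strongest member had 44 and 49 fragments in the same order. At Sall4 the strongest member had 57 fragments in Gata2WT and 85 in Gata2cKO. Pou5f1 and Nanog had no cluster within 50 kb in either list.

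Meiotic genes lay near a cluster about as often as coding genes do in general. Of 35 genes 2 (5.71%, 1.58 to 18.6), Hormad1 and Syce2, had a Gata2WT cluster within 50 kb, against 5.67% of all coding genes, and 1, Syce2, a Gata2cKO cluster. The cluster near Hormad1, an axis protein of meiotic chromosomes, is the one over Mcl1, with 8 and 4 intervals. Syce2, a synaptonemal complex protein, had 6 and 5 intervals in the Mast1 cluster, which is also within 50 kb of Klf1. Oocyte genes gave 1 of 20 in each list, Padi6 for Gata2WT and Foxo3 for Gata2cKO. Stra8 and Rec8 had no cluster in either list.

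Signalling genes gave 8 of 46 (17.4%, 9.09 to 30.7) in each list, with 5 genes in common. Ctnnb1, the beta-catenin of the WNT pathway, had 8 Gata2WT and 4 Gata2cKO intervals upstream (chr9:120890483-120927674), and the members with a counterpart had 26, 29, 18 and 39 fragments against 32, 21, 16 and 28. The 4 without one had 12 to 19 fragments. Id3, a target of BMP signalling, had 7 and 6, with 112 fragments at its strongest member in Gata2WT and 70 in Gata2cKO. The WNT target Axin2 had 6 and 3 intervals in a Gata2WT cluster and 8 and 4, Gata2cKO first, in a neighbouring Gata2cKO cluster that overlaps it by 1 member. That shared member had 94 and 88 fragments. Smad6 and Smad7, inhibitors of the BMP and activin pathways, and the retinoid receptor gene Rxrb had clusters in both lists. Those near Rxrb were separate regions, chr17:33968647-33992494 in Gata2WT and chr17:34077507-34102007 in Gata2cKO, and neither overlapped a cluster of the other list.

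Chromatin and DNA methylation regulators had 2 of 28 genes with a Gata2WT cluster (Ring1 and Kmt2d) and 0 of 28 with a Gata2cKO cluster, which allows up to 12.1%. Granulosa and stromal markers had 2 of 20 in both lists, Gata4 and Col1a1. Endothelial, blood and macrophage markers had 3 of 19 and 2 of 19. In the Gata2WT list the counting intervals of the germ cell, GATA and signalling lists lay above the 5.67% of all coding genes, and those of the other lists given here included it. For Gata2cKO clusters those of the same lists, and of the pluripotency list, lay above the 4.52% of all coding genes. The others given here included that value. The counting intervals of the lists overlapped each other in both genotypes. Gene length and the number of intervals near a gene differ between lists, and their part in these counts was not tested.

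Clusters were spread unevenly over the chromosomes. Members made up 12.4% of the distal Gata2WT intervals on chromosome 5, 11.1% on chromosome 7 and 10.6% on chromosome 4, and 5.16% on chromosome 9 and 4.55% on X at the low end. X alone had more Gata2cKO clusters, 6 against 4, and members made up 7.66% of its distal Gata2cKO intervals. Chromosome 6 had 20 Gata2WT and 8 Gata2cKO clusters and chromosome 12 had 19 and 9. Chromosome 13, with the tRNA arrays, had 18 in each list and chromosome 10 had 28 and 27. The Gata2WT list is the longer one, and counts by chromosome at equal list lengths were not made.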

How the data were processed

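ATAC-seq libraries were made from 4 samples, 2 per genotype, grouped by the genotype in the labels. The build was GRCm38 (mm10) and the peak caller MACS2 2.2.6, per the submitters' processing notes, which also list bedtools 2.29.2, Picard 2.23.0, SAMtools, Bowtie2 2.3.5.1 and Trimmomatic 0.39. Parameters, the Tn5 shift, the mapping filter and the way of combining replicates were not given in the sources used here, and deposited peak names mark each list as combined. Each row holds, as the authors deposited it, a score, a fold enrichment over local background, a −log10 p-value and a −log10 q-value. The smallest deposited −log10 p-value was 3.00.

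Rows with the same interval were merged and the strongest summit kept, which took 58367 rows to 49394 intervals (Gata2WT) and 52241 to 44139 (Gata2cKO). Pileup, in whatever unit the peak caller stacked and here called fragments, was solved from fold and −log10 p to within 0.001 for 99.9939% and 99.9932% of intervals. −log10 q describes strength within a list and was not scaled between lists. Intervals that overlapped by 1 bp or more were called shared. Gene ends, promoter windows and miRNAs came from RefSeq tables (GRCm38.p6); the table gives no exons. Stitching and pileups were also tested on simulated data (Python 3.11.15, numpy 2.4.6, pandas 2.3.3, scipy 1.17.1, matplotlib 3.10.9).

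A cluster was named after the coding gene it overlaps most, else the nearest. Named clusters are the 10 with most intervals, the 8 with the largest surplus in each list, the 5 densest of those with at least 8, the 5 longest and 5 strongest by median, up to 4 genes per gene list by members within 50 kb, and Gata2; the text gives a part of these, and clusters such as Firre were singled out after their values were seen. Of 263 entries in 10 gene lists, 261 matched, 1 was an older symbol of a gene already listed and 1 (Gcna) was not found; 1 of these lists is not reported here. The members and lists were chosen with earlier results of these data known. Alternatives changed the gap, the cluster size, the gene-end window, the strength limit, list length and the overlap rule.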

Additional observations from a re-analysis of the deposited data

How the results depend on the processing

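No paired analysis was possible because each genotype is 1 combined list with no replicate numbers, and no replicate could be left out for the same reason. Cluster counts are set by the stitching rule. A gap of 5 kb gave 16 Gata2WT clusters with 84 members and 9 Gata2cKO clusters; single-list shares were then 22.6% of Gata2WT and 15.2% of Gata2cKO members, and 66.7% of Gata2cKO clusters were matched. A gap of 20 kb gave 1189 clusters with 7889 members and 900 clusters, with 50.1% and 66.0% matched and 38.6% of other distal Gata2WT intervals in 1 list alone. Clusters of 4 or more numbered 1063 (5203 members) and 785. Clusters of 8 or more numbered 53 (484 members) and 41, with 22.6% and 29.3% matched by a cluster of that size and 27.7% of Gata2WT members in 1 list alone. Dropping the ends of all genes gave 315 Gata2WT clusters with 1820 members, 48.5% of Gata2cKO clusters matched, and single-list shares of 35.1% of Gata2WT members, 26.0% of Gata2cKO members and 38.6% of other distal Gata2WT intervals. A gene-end window of 2.5 kb gave 25.5% of Gata2cKO members and 38.3% of other distal Gata2WT intervals in 1 list alone. Keeping intervals with a −log10 q of at least 5 left 50 clusters with 286 members and 32 clusters; 34.0% of the Gata2WT ones were matched, and 23.1% of Gata2WT members, 15.4% of Gata2cKO members and 31.2% of other distal Gata2WT intervals were in 1 list alone. At equal list lengths there were 301 Gata2WT clusters with 1786 members, 49.5% of them and 43.5% of the 340 Gata2cKO clusters matched; 26.0% of Gata2WT members, 31.5% of other distal Gata2WT intervals and 27.1% of Gata2cKO members were then in 1 list alone. An overlap of at least 50% of both intervals gave 33.6% and 47.9% matched and single-list shares of 41.1%, 45.8% (other distal Gata2WT intervals) and 33.5% (Gata2cKO members). Stitching both lists together lowered the median surplus of Gata2WT intervals from 2 to 1. Of 70 alternative values 49 moved beyond their margin. Gata2WT members were less often in 1 list alone than other distal intervals under all 9 alternatives, and at equal list lengths alone Gata2WT did not have the larger number of clusters.

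2 alternatives for single clusters, equal lengths and a −log10 q of at least 5 in the same spans, were chosen after seeing the data. The latter turned the sign of the Gata2WT minus Gata2cKO count at 4 Gata2cKO clusters, to 3 at Nhsl1 and to 1 at Map4k4, at Plcg2 and at Axin2. At Gata2WT clusters it took the surplus from 5 to 0 at Arhgef10 and Mcf2l, from 6 to 1 at Mical3 and Plk5 and from 5 to 1 at Tead1. The cause of these shifts was not tested beyond the intervals each setting drops.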
